A study of Homo sapiens with 36 samples.

Results

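The transcripts of 10 genes that make, use and break down glutathione were followed in 2 human cell lines exposed to a plant extract or to a kinase inhibitor. The genes were taken by symbol, for their roles in glutathione metabolism and with no threshold on a value. They were chosen with earlier results of these data known, and are GCLC, GCLM, GSS, GSR, CHAC1, CHAC2, GPX1, GPX2, GPX4 and GSTP1. All 10 were among the 60675 genes of the count table. At the highest dose of the extract, CHAC1, which cleaves glutathione, rose 7.65-fold in SW1783 and 7.92-fold in HT29, and GCLC, which starts its synthesis, rose 3.94-fold in SW1783 and 1.71-fold in HT29. The 2 lines differed in the dose at which CHAC1 rose and in how far GCLC rose.

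Glutathione is a tripeptide of glutamate, cysteine and glycine and is the main soluble thiol of animal cells. Glutamate-cysteine ligase, made of the catalytic subunit GCLC and the modifier subunit GCLM, joins glutamate to cysteine in the rate-limiting step, and glutathione synthetase (GSS) adds glycine. Glutathione peroxidases oxidise glutathione to reduce peroxides, glutathione reductase (GSR) regenerates it with NADPH, GSTP1 conjugates it to electrophiles, and the gamma-glutamylcyclotransferases CHAC1 and CHAC2 cleave it in the cytosol.

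RNA sequencing covered 36 libraries in 12 groups of 3. SW1783 is an astrocytoma line kept in Leibovitz's L-15 medium without added CO2, and HT29 is a colorectal adenocarcinoma line kept in DMEM, so that line and medium cannot be told apart. In batch B, cells received a water extract of Aconitum carmichaeli Debeaux (ACD) at 500 µg/mL (high), 100 µg/mL (medium) or 20 µg/mL (low) for 24 h, beside vehicle B. In batch A, cells received wortmannin, which inhibits PI3K, at 10 µM for 24 h, beside vehicle A. The labels give the vehicle as 0.1% DMSO, and comparisons were made within a batch and a line. Each line was a single established line, and the labels do not say whether replicates came from separate cultures, so that p-values measure the spread between these libraries, which may be technical.

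Library totals ran from 15941255 to 33866644 counts. Of the astrocytoma line's markers, VIM, CD44 and COL1A2 were high in SW1783, while the glial markers GFAP and S100B did not exceed 0.261 CPM (counts scaled to the library total) there. HT29 expressed all 5 of its epithelial markers, and their summed level in SW1783 did not exceed 0.405 CPM. CD44 was not confined to SW1783, since it ran from 380 to 577 CPM in HT29, against 1975 to 2857 CPM in SW1783. VIM did not exceed 0.133 CPM in HT29, and COL1A2 had no counts there. Mitochondrial ribosomal RNA (MT-RNR1 and MT-RNR2) moved with the extract: in SW1783 it took 0.912% to 0.960% of counts in vehicle B, 3.01% to 3.33% at the low dose, 7.67% to 8.05% at the medium dose and 5.76% to 6.06% at the high dose. In HT29 it took 1.14% to 1.22%, 0.982% to 1.14%, 1.96% to 2.18% and 11.3% to 12.5% in the same order. Its part in the results below was not tested. In HT29, replicate 2 of the high dose and replicate 1 of both vehicles stood apart from their groups for several of the 10 genes. For several of these genes, results that they move are given with and without them. The high-dose library was also unlike its group as a library. Pairs that held it had a chi-square per degree of freedom of 70.82 and 71.49, and the remaining pair of that group had 10.15. Its total was the lowest, at 15941255 counts. For HT29 at the high dose, the shares of all genes and the list results below include this library, and no version without it is given. Vehicles A and B of the same replicate number were more alike (chi-square per degree of freedom of 1.53 to 1.64 in SW1783, and of 1.46 to 1.54 in HT29) than vehicles of different numbers (2.04 to 3.12 and 4 to 17.7). Whether they share cultures is not given by the labels.

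The antioxidant response element, to which the transcription factor NRF2 binds, is known from the promoters of glutathione genes. Its core was searched as TGACNNNGC on both strands in RefSeq promoter windows (GRCh38.p14), which run from upstream of a start to just inside the gene, for 7 of the 10 genes. GSS and GSR were not searched. Of all 35116 windows, 13.3% held it. The stretches around the 3 matches are shown because they include the promoter of GCLM, which rose in HT29, and those of GPX2 and GSTP1, which did not pass the test under any treatment. Capitals mark the match, which lies on the strand opposite to the gene in GCLM and GPX2 and on its own strand in GSTP1.
GCLM (chr1:93909431-93909490, minus strand): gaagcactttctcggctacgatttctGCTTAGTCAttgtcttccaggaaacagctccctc
GPX2 (chr14:64942833-64942893, minus strand): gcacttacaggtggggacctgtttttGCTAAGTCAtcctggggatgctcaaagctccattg
GSTP1 (chr11:67583720-67583771, plus strand): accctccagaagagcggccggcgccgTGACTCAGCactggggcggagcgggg
The match began 34 bases before the start of GCLM, 122 before that of GPX2 and 66 before that of GSTP1. No match was found in the windows of GCLC, CHAC2, GPX1 and GPX4. The window of GCLC covers chr6:53545052-53545351 only. Sequence outside the windows, further upstream of a start among it, was not searched, so that these genes cannot be said to lack the element. A match is a description of letters and not a site of binding.

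Without treatment, the glutathione genes covered a wide range of levels, and the lines differed most in GPX2 and GSTP1. Levels between genes are given as normalized count per kilobase of exon, mean ± SD over 3 libraries of vehicle B. In HT29, GPX2, the glutathione peroxidase of the gastrointestinal epithelium, was highest at 11611 ± 487, followed by GSTP1 at 6906 ± 890, GPX4, the peroxidase that reduces lipid hydroperoxides, at 2894 ± 463 and GPX1, the ubiquitous cytosolic peroxidase, at 2508 ± 424. In SW1783 the order was GPX1 at 2835 ± 9.56, GSTP1 at 1730 ± 24.3 and GPX4 at 1300.0 ± 42.0. The ligase subunits were unequal in SW1783, with GCLM at 394 ± 8.42 and GCLC at 83.1 ± 1.50, and closer in HT29, with 263 ± 19.3 and 192 ± 7.73. CHAC1 was lowest of the genes above the counting floor in both lines, with 44.9 ± 4.05 in SW1783 and 28.2 ± 5.07 in HT29. Neighbours in the order whose libraries overlapped were GCLM and GSR in SW1783, and GPX4 and GPX1, GSS and CHAC2, and CHAC2 and GCLC in HT29. Exon lengths are unions over annotated transcripts, so that levels between genes are approximate.

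**Figure D1:**
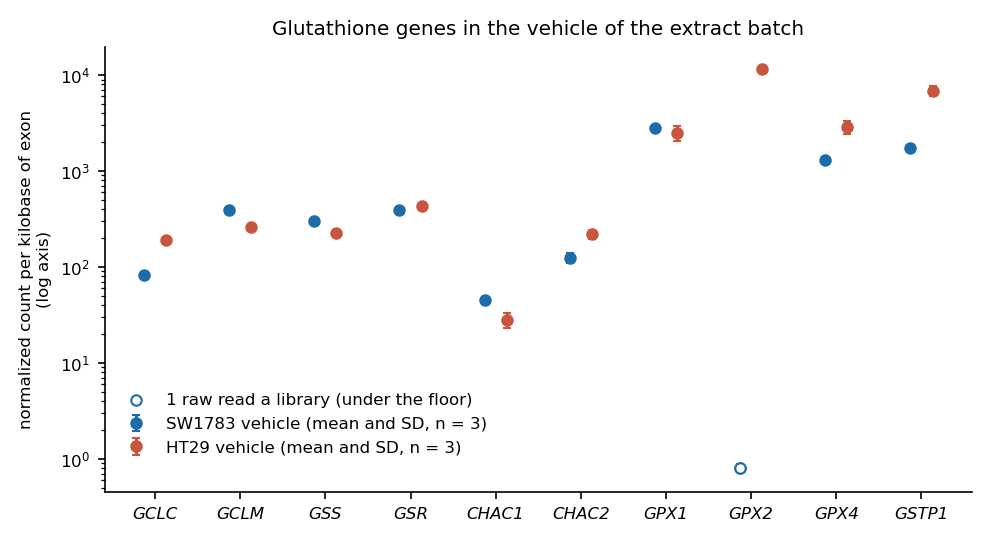
Normalized count per kilobase of exon (log axis) of the 10 glutathione genes in vehicle B of SW1783 (blue) and HT29 (red), as mean and SD of 3 libraries. GPX2 stands at 11611 in HT29 and at 1 read a library in SW1783 (open circle), and GSTP1, GPX4, CHAC2 and GCLC are higher in HT29.

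A gene passed the test where its adjusted p was under 0.05 and its fold change above 1.5 (0.585 on the log2 scale), with p-values from DESeq2 adjusted over all genes tested. Between vehicle B of SW1783 and of HT29, 6 of the 10 genes passed, beside 50.7% of 25086 genes tested, so that the share was near the background. CHAC1 was higher in SW1783 by 0.69 ± 0.17 (log2 ± SE, adjusted p = 7.01e-05), and by 0.58, just under the fold threshold, with the replicate number as a block. GCLC (-1.21 ± 0.05), CHAC2 (-0.82 ± 0.22), GPX4 (-1.16 ± 0.09) and GSTP1 (-2.0 ± 0.09) were lower in SW1783. GPX2 had 3 raw counts in all in vehicle B of SW1783 and 51088 in that of HT29, a ratio of 14490 with an exact 95% interval of 4957 to 70250 that covers counting error only. Its raw count did not exceed 4 in any library of SW1783, and no fold change is given for GPX2 in that line. GCLM differed by 0.58 ± 0.07, just under the fold threshold, and passed without replicate 3 of vehicle B of HT29 (0.64) or replicate 1 of vehicle B of SW1783 (0.60).

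Of the synthesis genes, the subunits of glutamate-cysteine ligase passed the test under the extract. GCLC rose in SW1783 at the medium and high doses and in HT29 at the high dose. GCLM passed in HT29 at the high dose alone among the groups tested. At the high dose, 2 of the 10 genes (GCLC and CHAC1) rose in SW1783, where 17.6% of 20092 genes tested passed and 8.39% rose, and 3 of the 10 (GCLC, GCLM and CHAC1) rose in HT29, where 3.16% of 14742 passed and 1.38% rose. At the medium dose, GCLC and CHAC1 rose in SW1783, beside 3.82% of 14111 genes that passed and 2.34% that rose, and none of the 10 passed in HT29, beside 0.792% of 17046. At the low dose, CHAC1 alone rose in SW1783, beside 0.118% of 9324 genes that passed and 0.0965% that rose, and none passed in HT29, beside 0.287% of 17046. None of the 10 passed with a fall under the extract in either line. At the high dose in SW1783, 3 had a fall of less than 1.5-fold with an adjusted p under 0.05. In bulk RNA, fewer cells of a kind and less RNA per cell cannot be told apart.

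**Figure D2:**
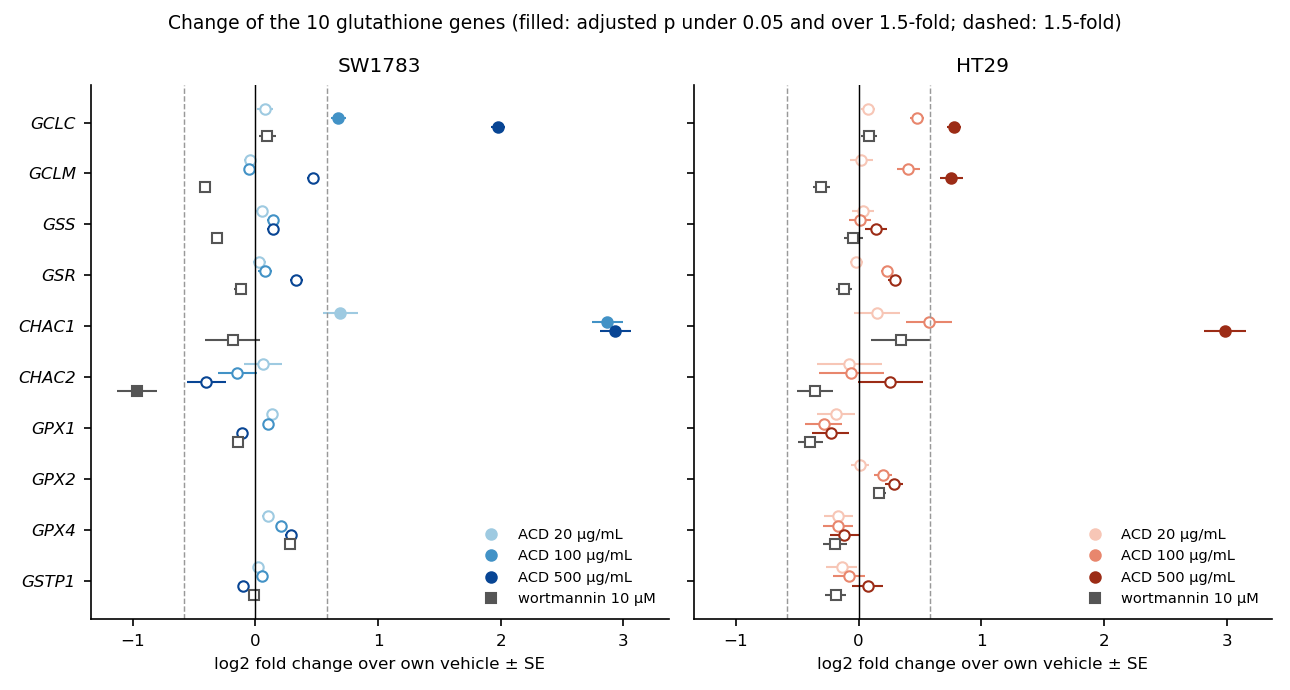
Log2 fold change over the vehicle of the same batch, with its SE, for the 10 glutathione genes in SW1783 (left) and HT29 (right). Filled symbols passed the test and dashed lines mark 1.5-fold. CHAC1 lies near 2.9 at the medium and high doses in SW1783 but only at the high dose in HT29, and CHAC2 is the single gene that passed with wortmannin. GPX2 is not drawn for SW1783.

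GCLC (ENSG00000001084) lies on chromosome 6 at 53497341-53616970 (GRCh38, GENCODE 44), minus strand. In SW1783 its normalized counts in the 3 libraries of each group were 666, 654 and 642 in vehicle B, 650.2, 680.3 and 746 at the low dose, 1044, 1001 and 1091 at the medium dose, and 2546, 2537 and 2649 at the high dose. The medium and high groups lay wholly above vehicle B and above each other, and the low group overlapped vehicle B. The fold changes on the log2 scale were 0.08 ± 0.07 (adjusted p = 0.635), 0.68 ± 0.06 (8.87e-26) and 1.98 ± 0.06 (1.8e-245). The step from medium to high was 1.3 ± 0.06 (adjusted p = 9.02e-119), and GCLC was the only one of the 10 genes to pass in that step, beside 9.83% of 17100 genes that passed and 4.42% that rose. With total counts as size factors, which shifted the median of all genes by -0.111, the medium-dose value was 0.57 and did not pass the fold threshold.

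In HT29, GCLC had 1798, 1719 and 1853 normalized counts in vehicle B, 1911, 1814 and 1924 at the low dose, 2499, 2484 and 2469 at the medium dose, and 3013, 3216 and 2958 at the high dose. Every library of the medium and high doses exceeded every vehicle library. The log2 fold changes were 0.07 ± 0.06 (adjusted p = 0.918), 0.47 ± 0.06 (6.95e-14) and 0.77 ± 0.06 (4.64e-39), of which the medium value stayed under the fold threshold. Without replicate 2 of the high dose the high value was 0.74. Across the 12 groups, scaled over all 36 libraries, the high dose raised GCLC to 2775 ± 63.8 in SW1783, which overlapped the 2860 ± 101 of HT29 at the same dose, from vehicle levels of 716 ± 12.9 and 1656 ± 66.6. A gene on the same strand shares 529 exon bases with GCLC, and in 7 libraries its estimated count was not whole, so that a few reads may have been divided between them.

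GCLM (ENSG00000023909; chromosome 1, 93885199-93909456, minus strand) passed in HT29 alone, at the high dose. In HT29 it had 1470, 1484 and 1667 normalized counts in vehicle B, 1667, 1446 and 1574 at the low dose, 2063, 2098 and 1954 at the medium dose, and 2408, 2903 and 2497 at the high dose. The medium and high groups lay above vehicle B, with replicate 2 the highest at the high dose. The log2 fold changes were 0.40 ± 0.09 (adjusted p = 0.00224) at the medium dose, under the fold threshold, and 0.75 ± 0.09 (adjusted p = 2e-13) at the high dose, where the value was 0.67 without replicate 2. In SW1783 the libraries held 1913, 1947 and 1994 counts in vehicle B, 1891, 1915 and 1850 at the medium dose, and 2656, 2602 and 2833 at the high dose. The medium group overlapped vehicle B (-0.05 ± 0.05, adjusted p = 0.451), and the high group was 0.47 ± 0.04 above it (adjusted p = 1.46e-25), a separation of all libraries that did not reach 1.5-fold.

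**Figure D3:**
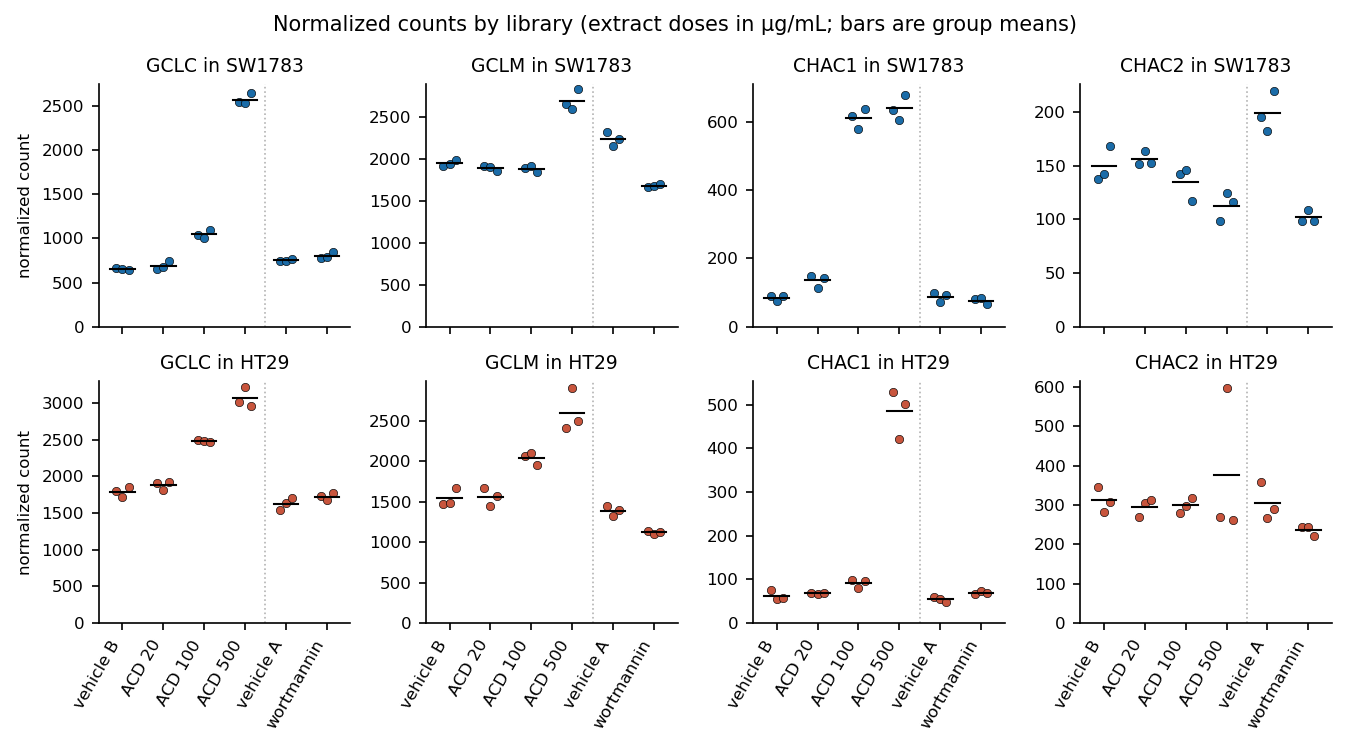
Normalized counts of GCLC, GCLM, CHAC1 and CHAC2 in each library of SW1783 (blue) and HT29 (red). Points are libraries, bars are means of 3, ACD doses are in µg/mL, and the dotted line separates batch B from batch A, which were scaled separately. CHAC1 steps up between 20 and 100 µg/mL in SW1783 and between 100 and 500 µg/mL in HT29, and 1 library of HT29 at 500 µg/mL stands apart for CHAC2.

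GSS (ENSG00000100983) and GSR (ENSG00000104687) did not pass in any treatment comparison. GSS, part of whose exons lies opposite 138 exon bases of MYH7B, differed from vehicle B by 0.15 ± 0.05 at the medium dose and 0.14 ± 0.05 at the high dose in SW1783 (adjusted p = 0.0111 and 0.00742). In HT29 its value at the high dose was 0.14 ± 0.09 (adjusted p = 0.405), and 0.04 without replicate 2, which held 1898 counts against 1537 and 1534. GSR was 0.33 ± 0.05 above vehicle B at the high dose in SW1783 (1614 ± 89.2 against 1282 ± 47.7, adjusted p = 3.48e-09) and 0.29 ± 0.05 in HT29 (2072 ± 54.8 against 1689 ± 45.0, adjusted p = 1.75e-06). In both lines all 3 high-dose libraries of GSR lay above all 3 of vehicle B, at a size under 1.5-fold.

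Among the genes of breakdown, CHAC1 rose at the high dose in both lines and, in the fit of all doses, from the low dose on in SW1783. CHAC1 (ENSG00000128965; chromosome 15, 40952962-40956512, plus strand) is a known target of the transcription factor ATF4. In SW1783 it had 88.1, 75.3 and 88.5 normalized counts in vehicle B, 149, 113 and 143 at the low dose, 617, 578 and 638 at the medium dose, and 636, 605 and 679 at the high dose. All treated libraries lay above vehicle B, while the medium and high groups overlapped each other. The log2 fold changes were 0.69 ± 0.14 (adjusted p = 0.000122), 2.87 ± 0.13 (7.74e-111) and 2.94 ± 0.13 (2.04e-117). The low-dose adjusted p came from a fit in which the mean count used for filtering included the medium and high doses. With vehicle B and the low dose fitted alone, the value was 0.69 (unadjusted p = 0.000529) and DESeq2 gave no adjusted p. The step from medium to high was 0.07 ± 0.10 with a 95% interval from -0.12 to 0.25 (adjusted p = 0.634).

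In HT29, CHAC1 had 75.5, 54.9 and 57.5 normalized counts in vehicle B, 68.9, 67.5 and 68.1 at the low dose, 99.1, 81.4 and 95.5 at the medium dose, and 530.5, 422 and 502 at the high dose. The low group overlapped vehicle B, the medium group lay just above it, and the high group lay far above both. The log2 fold changes were 0.15 ± 0.19 (adjusted p = 0.965), 0.57 ± 0.19 (0.08) and 2.99 ± 0.17 (8.54e-67). At the medium dose the value was 0.71 and passed (adjusted p = 0.0396) without replicate 1 of vehicle B, the highest of the 3. The step from medium to high was 2.41 ± 0.16 (adjusted p = 2.65e-50), and CHAC1 was the only one of the 10 genes to pass in it, beside 0.699% of 14742 genes that passed and 0.387% that rose. Mitochondrial ribosomal RNA took its highest share in the same groups, SW1783 at the medium and high doses and HT29 at the high dose. With total counts as size factors, which gave the lowest of the alternatives, the high-dose value of CHAC1 was 2.82 (SW1783) or 2.84 (HT29).

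CHAC2 (ENSG00000143942; chromosome 2, 53767804-53775196, plus strand), which cleaves glutathione more slowly, did not pass under the extract. In SW1783 it had 137, 143 and 169 normalized counts in vehicle B and 98.4, 124 and 116 at the high dose, groups that did not overlap, with a log2 fold change of -0.40 ± 0.16 (adjusted p = 0.032). In HT29 it had 346, 282 and 309 in vehicle B and 269, 597 and 261 at the high dose. Replicate 2 was more than 2-fold above the other libraries of its group, and the log2 fold change was 0.26 ± 0.26 (adjusted p = 0.67) with it and -0.23 (adjusted p = 0.235) without it.

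The enzymes that use glutathione did not pass in any treatment comparison of either line. GPX4 (ENSG00000167468) differed most among them in SW1783, with 2102, 2224 and 2225 normalized counts in vehicle B, 2479, 2489 and 2619 at the medium dose, and 2762, 2635 and 2622 at the high dose. Both treated groups lay above vehicle B, by 0.21 ± 0.05 (adjusted p = 2.46e-05) and 0.29 ± 0.05 (5.13e-10) on the log2 scale. In HT29, GPX4 spread widely in vehicle B, at 6762, 5564 and 4945, and overlapped the high dose, at 5160, 5845 and 4930. Its log2 fold change at that dose was 0.014 (adjusted p = 0.968) without replicate 1 of vehicle B and -0.215 (0.351) without replicate 3 of vehicle B.

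GPX2 (ENSG00000176153), measurable in HT29 only, had 17477, 16119 and 16869 normalized counts in vehicle B and 19736, 22611 and 19353 at the high dose, which lay wholly above. The difference was 0.29 ± 0.07 (adjusted p = 0.00196), under 1.5-fold. GPX1 (ENSG00000233276) in SW1783 was 0.14 ± 0.04 above vehicle B at the low dose, 0.11 ± 0.04 above at the medium dose and 0.11 ± 0.04 below at the high dose, all with adjusted p under 0.05. In HT29 its high-dose value was -0.23 ± 0.15 (adjusted p = 0.432), -0.41 (adjusted p = 0.00188) without replicate 2 of that dose and -0.09 (adjusted p = 0.859) without replicate 1 of vehicle B, which held 4623 counts against 3664 and 3364. GPX1 shares 572 exon bases with a gene on the same strand and had counts that were not whole in 18 libraries, so that small differences in it are uncertain. GSTP1 (ENSG00000084207) was -0.10 ± 0.04 at the high dose in SW1783 (adjusted p = 0.0284) and 0.07 ± 0.13 in HT29 (adjusted p = 0.829), where it was -0.07 without replicate 2 of the high dose and 0.18 without replicate 1 of vehicle B.

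Wortmannin gave another picture, in which CHAC2 fell in SW1783 and none of the 10 genes passed with a rise. In SW1783, 1 of the 10 genes passed, beside 2.71% of 14530 genes tested, of which 0.97% fell. CHAC2 had 195, 183 and 220 normalized counts in vehicle A and 98.1, 109 and 99.0 with wortmannin, so that every treated library lay below every vehicle library. It fell by 0.97 ± 0.16 on the log2 scale (adjusted p = 4.14e-08), and by 0.89 to 1.03 with any 1 library left out. GCLM (-0.41 ± 0.05, adjusted p = 5.67e-17), GSS (-0.31 ± 0.05, 4.83e-10) and GPX4 (0.29 ± 0.04, 3.73e-11) differed by less than 1.5-fold.

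In HT29, none of the 10 genes passed with wortmannin, beside 2.74% of 13162 genes. By DESeq2 6 of them had an unadjusted p under 0.05 and 3 an adjusted one, and edgeR also called none and gave 6 with an unadjusted p under 0.05. Those 3 were GCLM (-0.30 ± 0.07, adjusted p = 0.000372), GPX1 (-0.39 ± 0.10, 0.00213) and GPX2 (0.17 ± 0.05, 0.0126). Without replicate 1 of vehicle A, which held 4151 counts of GPX1 against 3335 and 2978, GPX1 was -0.25 (adjusted p = 0.00014), and without replicate 2 of vehicle A, GPX2 was 0.14 (adjusted p = 0.123). CHAC2 had 360, 268 and 289 counts in vehicle A and 244, 244 and 222 with wortmannin, a difference of -0.36 ± 0.15 (adjusted p = 0.0666), or -0.23 (adjusted p = 0.334) without replicate 1 of vehicle A. CHAC1 and GCLC overlapped their vehicle in one line each and had adjusted p between 0.315 and 0.585 in both.

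The extract at the medium and low doses in HT29 likewise gave no calls among the 10 genes. At the medium dose DESeq2 and edgeR each gave 5 genes with an unadjusted p under 0.05, of which GCLC, GCLM and GSR had an adjusted p under 0.05 by DESeq2, and at the low dose each gave none. Between vehicle B and vehicle A, none of the 10 genes passed in SW1783, beside 0.00348% of 28759 genes, or in HT29, beside 0% of 27605. The log2 differences of the genes other than GPX2 ran from -0.19 to 0.18 in SW1783 and those of all 10 from -0.08 to 0.07 in HT29. DESeq2 gave none of the 10 an unadjusted p under 0.05 in either line, and edgeR gave 3 in SW1783 and none in HT29.

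Whether the lines responded differently was tested as the difference of their log2 fold changes, SW1783 minus HT29, in a joint fit. At the high dose GCLC differed by 1.16 ± 0.07 (95% interval from 1.03 to 1.3, adjusted p = 6.6e-60), and it was the only one of the 10 genes to pass, beside 14.6% of 18410 genes. At the medium dose CHAC1 was the only one to pass, with 2.27 ± 0.21 (1.86 to 2.68, adjusted p = 1.95e-24), beside 3.43% of 14405. CHAC1 at the high dose gave -0.10 ± 0.20 with an interval from -0.49 to 0.28, and GCLC at the medium dose gave 0.18 ± 0.07 with an interval from 0.04 to 0.32 (adjusted p = 0.0941). GCLM was -0.48 ± 0.09 (adjusted p = 1.33e-05) at the medium dose and -0.33 ± 0.09 (0.00241) at the high dose, lower in SW1783 but under the fold threshold. GPX4 was 0.36 (adjusted p = 0.0469) at the medium dose and 0.37 (0.0174) at the high dose, higher in SW1783 and also under that threshold. GSR at the high dose gave 0.00 ± 0.06 with an interval from -0.13 to 0.12. At the low dose none of the 10 passed, beside 0.266% of 12403 genes, with 1 unadjusted p under 0.05 by DESeq2 and 3 by edgeR, which also called none.

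With wortmannin, CHAC2 differed between the lines by -0.63 ± 0.20 (adjusted p = 0.0136), 1 of the 10 genes beside 3.42% of 13013. That call was lost without replicate 2 of vehicle A of HT29 (-0.54), replicate 3 of vehicle A of SW1783 (-0.56), or replicate 1 or 3 of SW1783 with wortmannin (both -0.61). GPX4 (0.45, adjusted p = 0.00116) and GSS (-0.29, 0.00211) also differed between the lines with wortmannin, by less than 1.5-fold. At the high dose of the extract the difference in CHAC2 was -0.69 ± 0.32 (adjusted p = 0.0936). CHAC2 passed without replicate 1 (-0.88) or replicate 3 (-0.90) of HT29 at the high dose, while it was -0.22 without replicate 2, the outlying library.

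**Figure D4:**
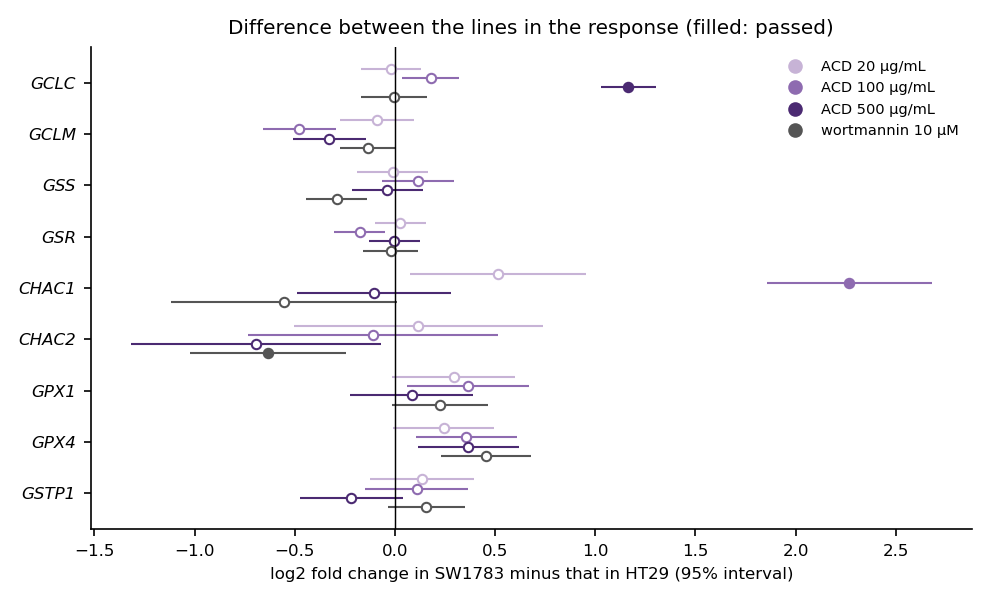
Difference between the lines in the log2 fold change (SW1783 minus HT29) with its 95% interval, for the glutathione genes other than GPX2. Filled points passed the test. GCLC at 500 µg/mL (1.16) and CHAC1 at 100 µg/mL (2.27) stand to the right of 0, and CHAC2 with wortmannin (-0.63) to the left.

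Genes around glutathione were counted in lists by role. These lists too were chosen with earlier results of these data known, so that their counts beside all genes describe and do not test. Cysteine supply holds the transporters and enzymes that bring in or make the amino acid limiting for glutathione. At the high dose in SW1783, 6 of its 8 genes rose and 1 fell, beside 8.39% of all genes that rose and 17.6% that passed, with a median of 1.50 on the log2 scale against -0.01 for all genes tested and 0.29 for the glutathione genes without GPX2. CBS (2.69 ± 0.12) and CTH (2.49 ± 0.11), which make cysteine from homocysteine, and SLC7A11 (1.86 ± 0.03), the cystine importer, had the largest changes. MAT2A, which makes S-adenosylmethionine and is named after its value was seen, fell by 1.09 ± 0.03. In HT29, 4 of 7 genes tested rose and none fell, beside 1.38% of all genes that rose, among them SLC7A11 (1.21 ± 0.11), SLC1A4 (1.16 ± 0.15), a neutral amino acid transporter, and CTH (0.86 ± 0.17), with a median of 0.83 against 0.01 for all genes and 0.27 for the 10 glutathione genes. The medium dose raised 6 of 8 in SW1783, beside 2.34% of all genes, and 1 of 7, SLC7A11 (0.61 ± 0.11), rose in HT29, beside 0.792% that passed.

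The list of the amino acid stress response, ATF4 and genes known to respond to it, had the highest median of the lists at the high dose in both lines. In SW1783 at that dose 9 of 10 rose, beside 8.39% of all genes, with a median of 2.80, among them ATF3 (4.73 ± 0.17), TRIB3 (4.31 ± 0.06) and DDIT3 (3.91 ± 0.06), and ATF4 itself rose by 2.02 ± 0.04. In HT29 8 of 10 rose, beside 1.38% of all genes, with a median of 1.10, among them ASNS (2.08 ± 0.14), DDIT4 (1.83 ± 0.08) and VLDLR (1.12 ± 0.17), and ATF4 rose by 0.59 ± 0.08. At the medium dose in SW1783, 9 of the 10 already rose, beside 2.34% of all genes, with a median of 1.86. From the medium to the high dose in SW1783, where CHAC1 differed by 0.07 ± 0.10, 8 of the 10 rose further, beside 4.42% of all genes. ATF3 rose by 2.85 ± 0.12 in that step, DDIT3 by 2.06 ± 0.06 and TRIB3 by 1.47 ± 0.04. None of the 10 passed in HT29 at the medium dose, where the list's median was 0.10.

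Of the NRF2 system and its reference targets, 9 of 12 rose and none fell at the high dose in SW1783, beside 8.39% of all genes that rose, with a median of 0.80. HMOX1 (3.39 ± 0.05), which degrades heme, MAFF (2.05 ± 0.08), a small MAF partner, and OSGIN1 (1.71 ± 0.09) had the largest changes, and NQO1 rose by 0.62 ± 0.03. In HT29 3 of 12 rose, beside 1.38% of all genes, with a median of 0.28, namely HMOX1 (1.09 ± 0.13), NQO1 (0.89 ± 0.15) and TXNRD1 (0.73 ± 0.06). The medium dose raised 3 of 12 in SW1783, beside 2.34% of all genes, and 2 of 12 in HT29, beside 0.792% that passed.

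**Figure D5:**
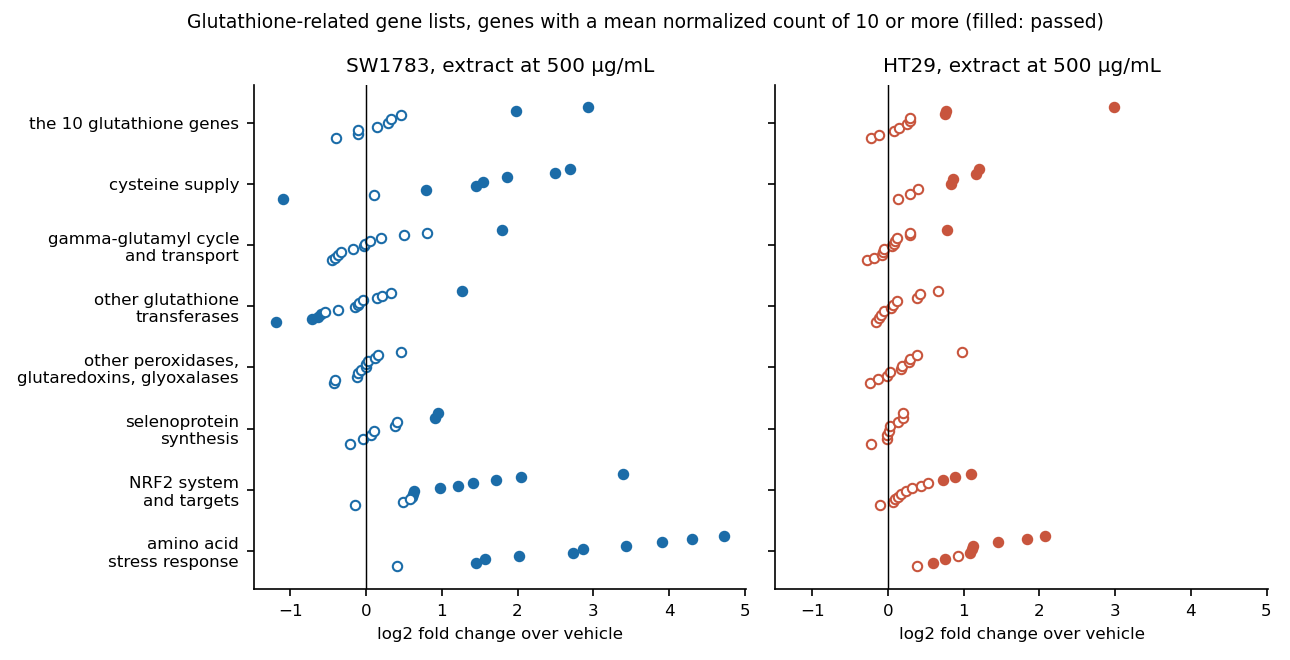
Log2 fold change over vehicle B at 500 µg/mL for the genes of each list that averaged at least 10 normalized counts, in SW1783 (blue) and HT29 (red). Each point is a gene and filled points passed the test. In the row of the 10 glutathione genes, CHAC1 lies far right, at 2.94 in SW1783 and 2.99 in HT29. Cysteine supply, the NRF2 system and the amino acid stress response reach further right than the remaining lists, and most peroxidases and transferases lie near 0.

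At the high dose in SW1783, where 17.6% of all genes passed and 8.39% rose, none of 11 other peroxidases, glutaredoxins and glyoxalases passed, and 2 of 8 genes of selenoprotein synthesis rose, SEPHS2 (0.95 ± 0.07) and SEPSECS (0.91 ± 0.16). Of 14 other glutathione transferases tested, 1 rose and 4 fell. Among those that fell were GSTM2 (-0.71 ± 0.13), GSTM1 (-0.63 ± 0.13) and GSTM4 (-0.60 ± 0.14), related genes between which reads may be divided. In HT29, where 3.16% of all genes passed, none of these 3 lists had a gene that passed at that dose. Of the gamma-glutamyl cycle and glutathione transport, OPLAH, which opens the ring of 5-oxoproline, the product of CHAC1 and CHAC2, was the only gene to pass at the high dose, 1 of 12 tested in each line. It rose by 1.79 ± 0.23 in SW1783 and 0.78 ± 0.22 in HT29, with mean counts under 100 in both, and is named after its values were seen.

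With wortmannin, where 2.71% of all genes passed in SW1783 and 2.74% in HT29, no list had more than 1 gene that passed in a line. HMOX1, 1 of 12 genes of the NRF2 list, fell by 0.99 ± 0.06 in SW1783, and GPX3 (0.76 ± 0.10), the secreted peroxidase, and OPLAH (0.71 ± 0.20) rose and ASNS fell by 0.76 ± 0.08 in HT29. GGT5 in SW1783 (1.27 ± 0.34) and CTH in HT29 (0.61 ± 0.22) also rose at mean counts under 100, and are named after their values were seen. None of the 10 glutathione genes is among them.

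Likeness of response was measured over the 8 treatment fold changes as the root mean square difference on the log2 scale, among 9623 genes that averaged at least 100 counts in each line. The genes closest to GCLC were LIF (0.17) and the pseudogene NAMPTP1 (0.19), against a median of 0.81 over all those genes. Closest to GCLM were IFRD1 (0.13) and STEAP1 (0.14), against 0.41. Nearest to CHAC1 were the mitochondrial ribosomal RNA MT-RNR2 (0.43) and ASNS (0.64), against 1.82. CHAC2 was nearest to LRR1 (0.12) and RAD51AP1 (0.13), against 0.43. The extract comparisons of a line share vehicle B, so that their values are not independent of each other.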

How the data were processed

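Directional mRNA libraries were sequenced from both ends by the authors on an MGI platform. The reads were trimmed with Trim Galore, aligned to GRCh38 with STAR and turned into estimated counts per gene with RSEM. The submitters' processing notes give FastQC 0.11.9, Trim Galore 0.6.5, STAR 2.7.3a and RSEM 1.3.3. The deposited values are expected counts per gene, not normalized, for 60675 Ensembl genes, of which 56558 matched a symbol in GENCODE 44. Of the deposited values 8.84% were not whole, because RSEM divides reads that match several genes, and all were rounded to whole numbers.

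DESeq2 1.42.0 (R 4.3.3) was fitted per line on the 12 libraries of batch B or the 6 of batch A, and on the 24 or 12 of both lines for differences between lines. Two-sided Wald p-values were adjusted by Benjamini-Hochberg over all genes after the default independent filtering at 0.1. Genes with an adjusted p under 0.05 and a fold change above 1.5 passed. A normalized count is the rounded count divided by the library's size factor in that fit. Values are means ± SD of 3 libraries, fold changes have SE, and a count of 3 was taken as the floor. Alternatives were edgeR 4.0.16 quasi-likelihood tests, other size factors, filters and sets of libraries, a replicate block, and leaving out each library. The scripts' tests were checked on simulated data. Figures were drawn with matplotlib.

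The 10 genes and all lists were chosen with earlier results of these data known. The 10 genes are named throughout. Of each other list the text gives counts and at most the 3 genes that passed with the largest change at the high dose of a line and 2 with wortmannin, at a mean count of 100 or more, plus ATF4, NFE2L2, NQO1, HMOX1 and SLC7A11, and the 2 genes most like each member that passed. Replicate numbers paired vehicle A with vehicle B (every correlation of deviations above 0.1, lowest 0.232), but no treatment with its vehicle, and the block changed no call between vehicles. The text of the labels gives 0.1% DMSO, while the series' design text names another concentration. Where the sources differ on tool versions, the submitters' notes were used. Promoter sequences are from RefSeq. Of the bases printed, 26 of GCLM and 30 of GSTP1 are exon in a GENCODE 44 transcript. GSS, GSR and 1 other gene have no promoter result here. All 36 columns of the table were used.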

Additional observations from a re-analysis of the deposited data

Results flagged for a closer look

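In 3 results the response differed between SW1783 and HT29 by a test of the difference itself, fitted by DESeq2 over both lines. GCLC at 500 µg/mL of the extract rose further in SW1783 (1.98 against 0.77 on the log2 scale within the lines), with a difference of 1.16 in the joint fit that ran from 1.14 to 1.20 when any 1 library was left out. CHAC1 at 100 µg/mL rose in SW1783 (2.87) and did not pass in HT29 (0.57), with a difference of 2.27 that ran from 2.14 to 2.37 when any 1 library was left out. CHAC2 with wortmannin fell in SW1783 (-0.97) and did not pass in HT29 (-0.36), with a difference of -0.63 that ran from -0.76 to -0.54. That call was lost when any of 4 libraries was left out and with the replicate block (adjusted p = 0.219). The lines were kept in different media, which cannot be told apart from the lines. No test of an outlying library was applied to the groups of 3, and each library was left out in turn instead.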

How the results depend on the processing

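Over 2611 values of single genes under the alternatives, 2560 kept their side of the threshold, and none that passed reversed. Most of these were values that did not pass in either setting. Only 292 started from a result that passed, and 7 of those no longer passed. The 7 alternatives that gave CHAC1 at the low dose in SW1783 no adjusted p were left out of this tally. A sign changed 91 times among values that did not pass, none above 0.23 in size. Without the fold threshold, the number of the 10 genes called in SW1783 became 9 at the high dose, 5 at the medium dose, 2 at the low dose, 5 from medium to high and 5 with wortmannin. In HT29 it became 5 at the high dose, 3 at the medium dose, 3 from medium to high and 3 with wortmannin, and in the difference between lines 3 at the high dose, 3 at the medium dose and 3 with wortmannin. With total counts as size factors, which shifted the median of all genes by -0.144 at the high dose in HT29 and by -0.113 in SW1783, 1 gene passed at the medium dose in SW1783. Leaving out 1 library gave 0 to 1 genes in HT29 at the medium dose, 1 to 2 in the difference between lines at the high dose and 0 to 1 in that with wortmannin. With the replicate block, none passed in the difference between lines with wortmannin (CHAC2 -0.63, adjusted p = 0.219), and CHAC1 between the vehicles of the lines (0.58) fell below the fold threshold while GCLM (0.59) rose above it. The block changed no other call that had an adjusted p, and replicate numbers did not pair treatment with vehicle. For CHAC1 at the low dose in SW1783, DESeq2 gave no adjusted p under 7 alternatives. Among them were the replicate block, the fit of the compared groups alone and 4 omissions of a library. Under these, the log2 fold change of CHAC1 was 0.62 to 0.81 with an unadjusted p from 1.34e-07 to 0.000529. By edgeR, CHAC1 was called. Independent filtering at 0.05, added after seeing the data, changed no call. The cause of these changes was not tested. CHAC1, with fewer than 100 counts in vehicle, and CHAC2 had the widest intervals, which limits what could be seen of them at the low dose.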
